A study of Mus musculus with 2 samples.

Results

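The genes that end the light response of photoreceptors were examined in mouse retina: the opsin kinase Grk1, rod arrestin Sag, cone arrestin Arr3, the regulator of G protein signalling Rgs9 with its membrane anchor Rgs9bp and its partner subunit Gnb5, and phosducin, Pdc. They were the 7 genes of a list, found through the RefSeq transcript assigned to each non-control probe, and were represented by 13 of 55677 distinct probes and by 7 of 21367 named genes. All 13 probes were above background on both arrays, and no member dropped out through a filter on dim signals. Total RNA came from dissected retinas at postnatal day 12, with 1 array labelled Samd7 KO and 1 array labelled wild type. The labels name no other allele or treatment in either group, and give neither the deleted part of Samd7 nor the number of animals behind each RNA sample. The RNA was labelled with Cy3 and hybridised to 1-colour Agilent arrays, and both arrays lay on 1 slide.

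A light response ends in steps. An activated opsin is first phosphorylated by opsin kinase and then capped by arrestin, which stops it from activating more transducin. Transducin itself is switched off when it hydrolyses its bound GTP, a reaction sped up by the complex of Rgs9, Gnb5 and Rgs9bp, and phosducin binds the beta-gamma part of transducin in photoreceptors. In mouse, Grk1 and the Rgs9 complex serve rods and cones. Sag is known as rod arrestin and Arr3 as cone arrestin, and RNA of a whole retina does not show which cells make either. At postnatal day 12 photoreceptors are still maturing.

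Signals are given as the scanner's processed signal, a linear intensity with background subtracted, and as log2 of that signal minus log2 of the array's 75th percentile, so that 0 marks a signal equal to that percentile. A difference is always the log2 value of the knockout-labelled array minus that of the wild-type-labelled array. With 1 array in each group there was no replicate, and no test of the genotype was possible. Each difference was set beside 2 margins. The SD of the difference among repeated spots of the same probe was 0.04 for signals of 2 or more on the log2 scale, 0.05 from 0 to 2, 0.09 from -2 to 0 and 0.23 below -2. The scanner software's own error of each signal, carried to the difference, was larger, between 0.20 and 0.24 for the member probes. It was 0.20 both for the bright Sag probe and for the far dimmer Rgs9 probe A_55_P1969032. Apart from the dimmest Rgs9bp probe it was therefore a nearly fixed margin, not a precision measured on these spots. Neither margin contains the spread between animals. The repeated spots lay on the same 2 arrays, so their SD also leaves out differences in labelling and hybridisation between arrays. For signals of 4 or more, that SD rests on 16 probes. Signals of different probes were not set against each other as amounts of RNA.

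The targeted gene did not check the labels in the usual way. The Samd7 probe A_55_P2138237 had a processed signal of 48967 on the knockout-labelled array and 14769 on the wild-type-labelled array, a difference of 1.78 on the log2 scale. A higher value is the opposite of what loss of the transcript would give, but a probe placed beyond the deletion would check nothing, and its place in the gene is unknown here. The arrays are therefore named by their labels. On the knockout-labelled array 60.9% of 59305 non-control spots were above background, against 60.3% on the wild-type-labelled array, and no spot was saturated on either.

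The shut-off genes were on the whole slightly lower on the knockout-labelled array, with cone arrestin on the other side. The differences of 6 of the 7 genes lay below 0, from -0.51 for Rgs9bp to -0.16 for Gnb5, and Arr3 lay at 0.32. Their median was -0.28, beside -0.02 over all 15947 genes above background on at least 1 array. For comparison, 57.6% of those genes lay below 0 and 42.2% above it. Differences were also counted past a ratio of 25% higher or, which is the same ratio turned round, 20% lower. By that threshold 2 members were lower (Rgs9bp and Rgs9), beside 7.59% of all genes, and 0 were higher, beside 6.1% of all genes. Among the 8728 genes above background on both arrays whose mean signal was at or above the 75th percentile, as that of every member was, the shares were 2.34% lower and 3.37% higher. Arr3, at 24.4% higher, and Grk1, at 1.24-fold lower, were the members nearest to that threshold without passing it. Arr3 passed it under every alternative processing, described below, that could move its value. No member reached 2-fold in either direction, where 1.57% of all genes were higher and 1.37% lower. A group of 7 genes is too small for these shares to say more than the counts themselves.

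**Figure D1:**
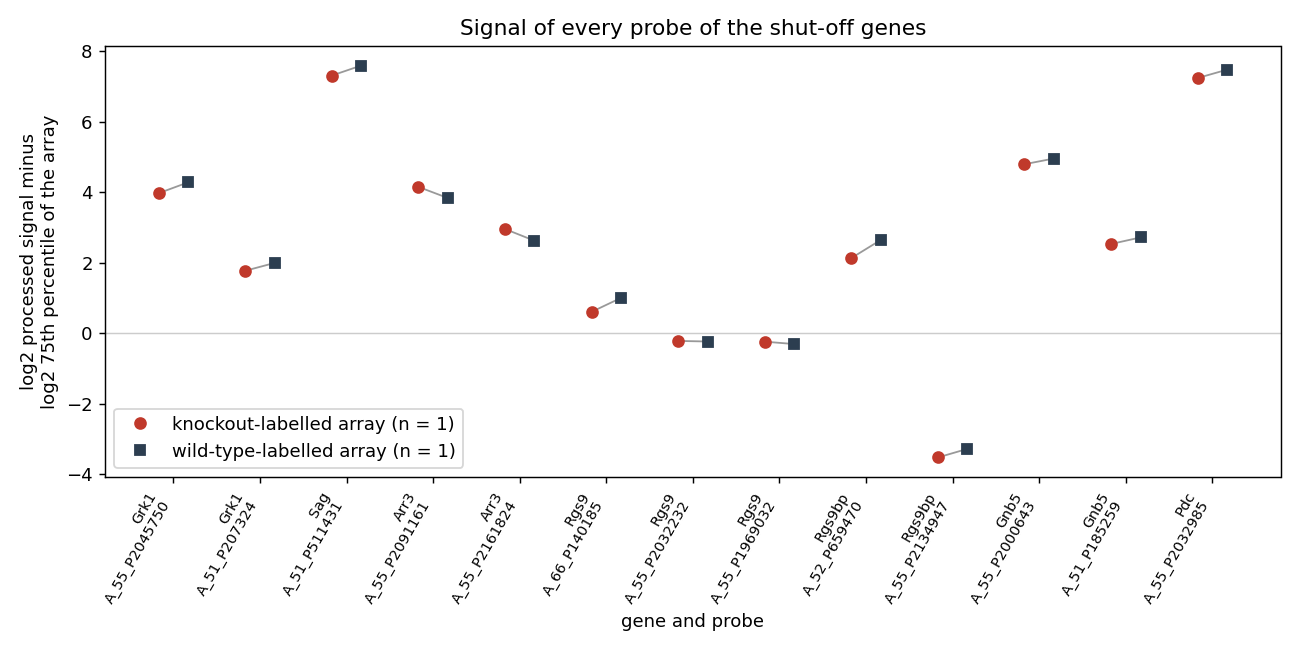
Log2 processed signal relative to the array's 75th percentile (vertical axis) for each of the 13 probes of the 7 genes (horizontal axis), with the knockout-labelled array as a circle and the wild-type-labelled array as a square, 1 array each. The circle lies above the square for both Arr3 probes and slightly for the A_55 probes of Rgs9, and below it for the other 9 probes.

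The arrestins differed in opposite directions. Sag, whose product caps phosphorylated rhodopsin in rods, had a processed signal of 87896 on the knockout-labelled array and 111026 on the wild-type-labelled array in its single probe A_51_P511431. This is a difference of -0.28, or 1.22-fold lower. Arr3, the cone arrestin, had 9832 on the knockout-labelled array and 8198 on the wild-type-labelled array in its brighter probe A_55_P2091161, a difference of 0.32. The dimmer Arr3 probe A_55_P2161824 gave 4295 on the knockout-labelled array and 3539 on the wild-type-labelled array, a difference of 0.33. The Arr3 probes thus lay within 0.02 of each other on the log2 scale, a smaller range than in most of the 4132 genes with several probes above background, whose median range was 0.10. The difference of Arr3 exceeded that of Sag by 0.60, which compares with a combined repeated-spot SD of 0.05 and a combined software error of 0.29.

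The DNA before the start sites of the arrestin genes is shown because these related genes lay on opposite sides of 0. Windows of 250 bases ending at the base before the RefSeq start were read on the strand of the gene, in build GRCm38.p6. The homeodomain protein CRX, a regulator of photoreceptor genes, prefers the letters TAATCC, or GGATTA on the other strand. Capitals mark these letters and the related TAATCT, or AGATTA on the other strand, a variant chosen after the sequences had been seen. The Sag window is chr1:87803430-87803679 on the plus strand, inside the RefSeq gene, whose predicted transcripts start further upstream. The Arr3 window is chrX:100605247-100605496 on the plus strand, and its last bases lie inside the RefSeq gene for the same reason.
Sag: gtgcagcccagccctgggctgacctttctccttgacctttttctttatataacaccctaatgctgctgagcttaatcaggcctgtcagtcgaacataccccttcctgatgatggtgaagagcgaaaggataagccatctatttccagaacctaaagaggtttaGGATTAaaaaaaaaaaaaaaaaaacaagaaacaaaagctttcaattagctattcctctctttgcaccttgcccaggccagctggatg
Arr3: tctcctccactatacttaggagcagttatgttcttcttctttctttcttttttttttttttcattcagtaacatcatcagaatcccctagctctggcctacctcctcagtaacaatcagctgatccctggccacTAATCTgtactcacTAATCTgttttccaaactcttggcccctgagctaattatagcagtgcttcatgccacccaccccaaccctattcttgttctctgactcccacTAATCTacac

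The Sag window holds GGATTA once, beginning 87 bases before the start. The Arr3 window holds TAATCT at 3 places, beginning 116, 102 and 10 bases before the start. Of 32851 RefSeq windows of the same length, 6.25% hold TAATCC or GGATTA, 7.31% hold TAATCT or AGATTA, and 12 windows (0.0365%) hold the variant at 3 or more places. The variant was chosen after the sequences had been seen, and 3 is the count in Arr3. That last share therefore cannot show that Arr3 is unusual. Windows were found for 6 of the 7 genes. Of these 6, Gnb5 also holds GGATTA, beginning 6 bases before its start, and Rgs9 holds AGATTA, beginning 188 bases before its start. The windows of Grk1 and Pdc hold neither. The letters TGCTGA or TCAGCA, a common part of sites bound by the rod factor NRL, occurred in Sag, 187 bases before the start, and in Rgs9, 147 bases before it, and in 16.1% of all windows. These are matches of letters and not measured binding sites.

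Opsin kinase was lower in both of its probes. Grk1 phosphorylates activated opsins in mouse rods and cones. Its brighter probe, A_55_P2045750, gave 8688 on the knockout-labelled array and 11159 on the wild-type-labelled array, a difference of -0.31. The dimmer probe, A_51_P207324, gave 1890.2 on the knockout-labelled array and 2288 on the wild-type-labelled array, a difference of -0.22. The probes lay on the same side and 0.09 apart, and each difference was above 4 times its repeated-spot SD but below 2 times the software error.

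Within the Rgs9 complex, Rgs9bp and Gnb5 were lower in every probe, to unequal degrees, and Rgs9 in 1 of its 3 probes. Rgs9bp, also called R9AP, anchors the complex to disc membranes, and in mouse the complex is unstable without it. Its brighter probe, A_52_P659470, gave 2425 on the knockout-labelled array and 3593 on the wild-type-labelled array. The difference of -0.51, or 1.43-fold lower, was the lowest of the 7 genes and the only one of the 13 probe differences beyond 2 times the software error, at 2.52 times. The other Rgs9bp probe, A_55_P2134947, was close to background, with 48.1 on the knockout-labelled array and 59.0 on the wild-type-labelled array. Its difference of -0.24 was about equal to the repeated-spot SD at that signal, 0.23. Among the 8728 brighter genes defined above, 0.848% had a lower difference than Rgs9bp.

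Gnb5 is the unusual beta subunit that binds Rgs9 and its relatives and is made in many neurons. By the brightest probe of each gene, Gnb5 was the member closest to level. The brighter probe, A_55_P2000643, gave 15364 on the knockout-labelled array and 17833 on the wild-type-labelled array, a difference of -0.16. The other probe, A_51_P185259, gave 3201 on the knockout-labelled array and 3776 on the wild-type-labelled array, a difference of -0.19. Both probes were lower by less than 1 software error. The difference of Rgs9bp minus that of Gnb5 was -0.35, beside a combined software error of 0.29.

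Rgs9 itself depended on the probe. The gene encodes the catalytic subunit that speeds GTP hydrolysis by transducin, and it is known to make a photoreceptor form and a longer form of the striatum. The probe A_66_P140185, assigned to transcript NM_001165934, gave 842 on the knockout-labelled array and 1150.2 on the wild-type-labelled array, a difference of -0.40, or 1.32-fold lower. The probes assigned to transcript NM_011268 were level. Of these, A_55_P2032232 gave 476 on the knockout-labelled array and 488 on the wild-type-labelled array, a difference of 0.02, and A_55_P1969032 gave 469 on the knockout-labelled array and 464 on the wild-type-labelled array, a difference of 0.07. The range of 0.47 among the Rgs9 probes was as wide as or wider than that of 93.9% of genes with several probes. The difference of the first probe minus that of each of the others was -0.41 and -0.47, with a combined repeated-spot SD of 0.10 and a combined software error of 0.29. Neither the labels nor the tables used here say which of the known forms each transcript encodes. The mean over the 3 probes was -0.10, so Rgs9 counts as at least 20% lower through its brightest probe only.

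**Figure D2:**
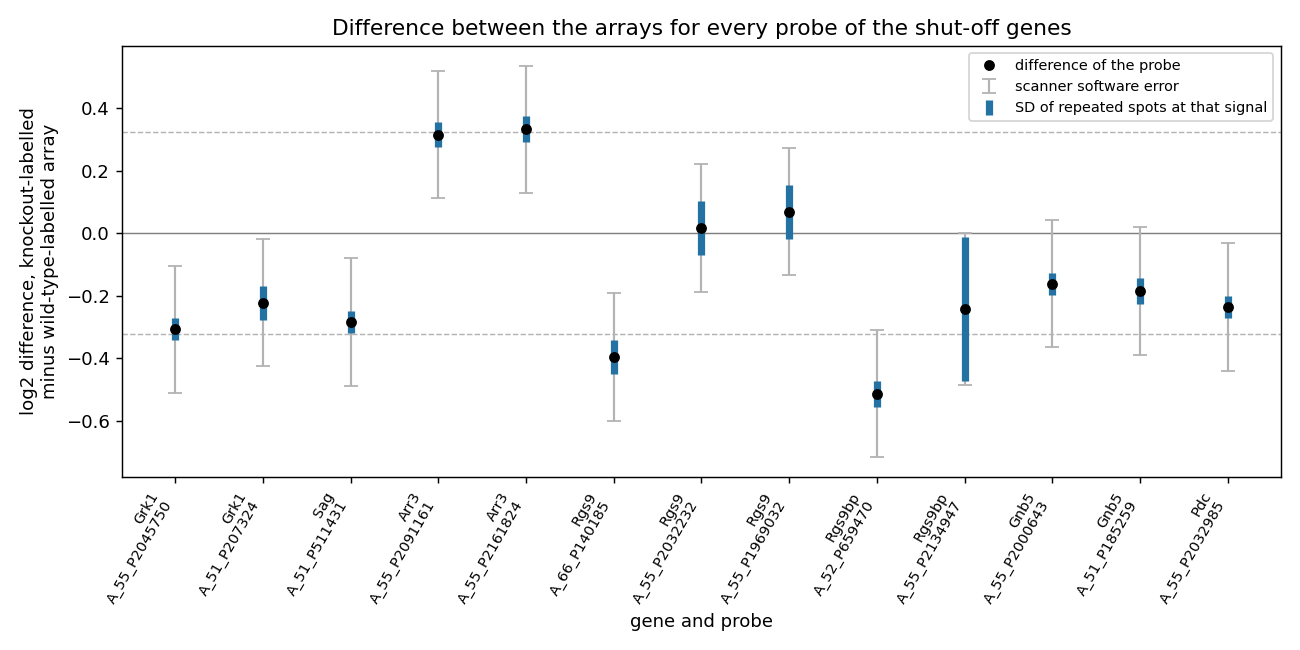
Log2 difference between the arrays (vertical axis, knockout-labelled minus wild-type-labelled) for each of the 13 probes (horizontal axis). Thick bars are the SD of repeated spots at that signal, thin bars are the scanner software's error, and dashed lines mark 25% higher and 20% lower. Only the brighter Rgs9bp probe lies beyond 2 times its thin bar from 0, and the Rgs9 probes lie at -0.40, 0.02 and 0.07.

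Phosducin, a brake on transducin that holds its beta and gamma subunits, was lower by about as much as rod arrestin. Its single probe, A_55_P2032985, gave 83686 on the knockout-labelled array and 102342 on the wild-type-labelled array. The difference was -0.24, or 1.18-fold lower. Among the same brighter genes, 4.33% had a lower difference than Pdc and 2.99% a lower one than Sag. The same share was 2.52% for Grk1, 1.60% for Rgs9 and 8.70% for Gnb5, and 3.49% of these genes had a higher difference than Arr3.

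Across the 13 probes, 9 differences lay below 0 and 4 above it. In 4 of the 5 genes with several probes all probes lay on 1 side, and Rgs9 was the exception. By repeated spots, 10 of the 13 differences were beyond 2 SD, and by the software's error 1 of the 13 was beyond 2 errors. Each member probe was printed as 1 spot, so a spot's own fault cannot be seen from its repeats. The median difference of the spots within 10 rows and 10 columns of each member spot lay between -0.06 and 0.02, with the lowest value beside Sag.

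**Figure D3:**
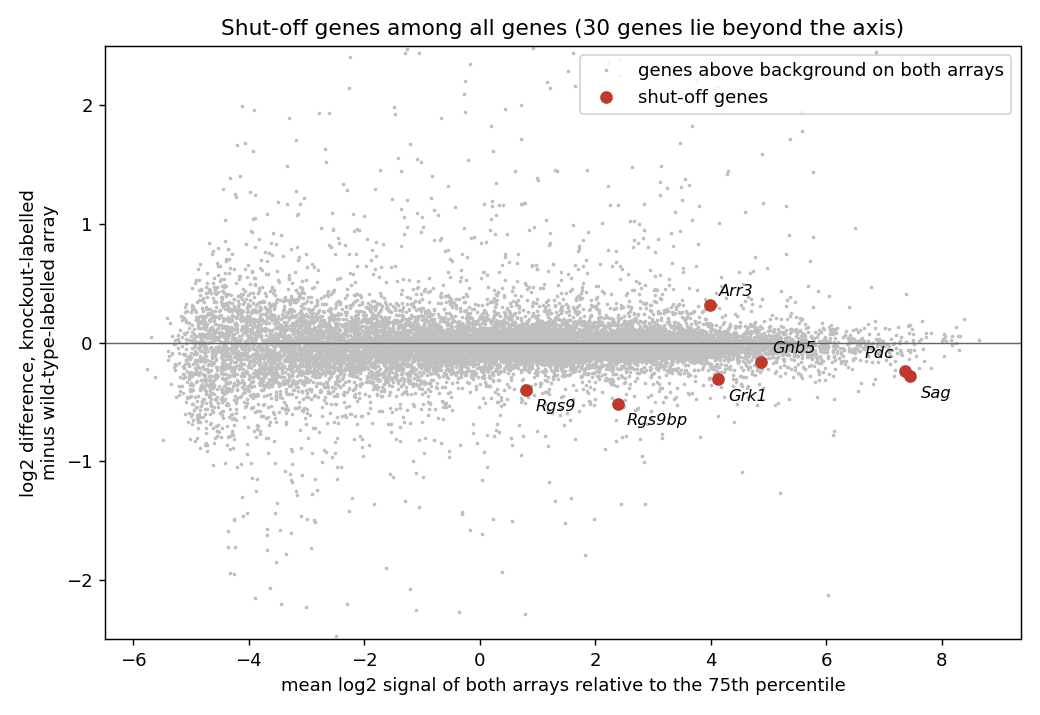
Log2 difference (vertical axis, knockout-labelled minus wild-type-labelled array) against the mean log2 signal of both arrays (horizontal axis) for the 15267 genes above background on both arrays, in grey, with the 7 shut-off genes in red by their brightest probe. Arr3 lies at the upper edge and Rgs9bp at the lower edge of the cloud at their signals, and 30 genes lie beyond the vertical axis.

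The other genes of the cascade place these values. Over all 15947 genes, the shares were 57.6% lower by any amount, 7.59% at least 20% lower and 6.1% at least 25% higher. At 2-fold the shares were 1.37% lower and 1.57% higher. Of the genes of rod excitation, 10 of 10 were lower, with a median of -0.35, and 5 were at least 20% lower. The rod transducin alpha subunit Gnat1, which Rgs9 switches off, was the only one at least 2-fold lower, with 17412 on the knockout-labelled array and 79039 on the wild-type-labelled array, a difference of -2.13. The catalytic phosphodiesterase subunits were nearest to level, with Pde6b at -0.07 and Pde6a at -0.16. Among the genes of cone excitation, 6 of 10 were higher, 5 of them by at least 25% and 4 at least 2-fold, and none was 20% lower. The median was 0.47. The cone channel subunit Cnga3 was highest at 2.91, with 4378 on the knockout-labelled array and 605 on the wild-type-labelled array. The gamma subunit of cone transducin, Gngt2 (2.45), the other cone channel subunit Cngb3 (2.14) and the short-wavelength opsin Opn1sw (2.09) followed, whereas the cone exchanger Slc24a2 (-0.06) and the medium-wavelength opsin Opn1mw (-0.17) were lowest. Cone arrestin, at 0.32, lay between the medians of these rod and cone lists. That place depends on the list, as the overlapping cone markers given below had a median of 0.04. No gene of cone excitation lay between 0.04 and 0.89, so its median falls in a gap.

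Of the 5 genes of calcium feedback, 4 were lower and 1 higher, with a median of -0.28. The cyclases and their activators in this list restore the cyclic GMP level after a flash. Guca1b, an activator of guanylate cyclase, lay at -1.33, with another probe at -2.07, and the cyclase Gucy2f at -0.50. Gucy2e, the other cyclase, lay at -0.01, with its lowest probe at -0.34, and the activator Guca1a at 0.38. The differences nearest to the median of the shut-off genes were those of Rcvrn (-0.28), Gngt1 (-0.28) and Cnga1 (-0.30). Recoverin, the product of Rcvrn, is a calcium sensor that inhibits opsin kinase, Gngt1 is the rod transducin gamma subunit and Cnga1 a rod channel subunit. The gap to that median was 0.001, 0.004 and 0.02, over 2 arrays, which is a likeness in a single difference and no more.

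Relatives of the shut-off genes among the kinases, arrestins, RGS proteins and phosducin-like genes were near level by their brightest probes. The beta subunits, given below, were not all level. Of them, Gnb1 and Gnb3 also belong to the rod and cone excitation lists. None of the 7 other kinases and arrestins was 25% higher or 20% lower. Among the kinases, Grk2 lay at 0.05, Grk3 at -0.02, Grk4 at 0.03 with another probe at -0.61, Grk5 at -0.14 and Grk6 at -0.17 with another probe at 0.31. The widely expressed arrestins Arrb1 and Arrb2 lay at 0.03 and -0.04. None of the 4 relatives of Rgs9 and Rgs9bp passed that threshold either. Rgs7 (-0.01) and Rgs11 (-0.02), which act with Gnb5 in ON bipolar cells, were level, as was the anchor Rgs7bp (0.05), and Rgs6 lay at 0.15 with another probe at -0.30. Of the phosducin-like genes, Pdcl lay at -0.08 and Pdcl3 at -0.05, and Pdcl2 was not above background on either array.

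The other beta subunits split. Gnb1, the beta subunit of rod transducin, gave 19242 on the knockout-labelled array and 27737 on the wild-type-labelled array, a difference of -0.47, with its lowest probe at -0.60. Gnb3, that of cone transducin, gave 41103 on the knockout-labelled array and 22990 on the wild-type-labelled array, a difference of 0.89. Gnb2, which is widely expressed, gave 70129 on the knockout-labelled array and 37172 on the wild-type-labelled array, a difference of 0.97. Gnb4 lay at -0.25. None of the 4 was 2-fold apart, and Gnb5 lay between them at -0.16.

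**Figure D4:**
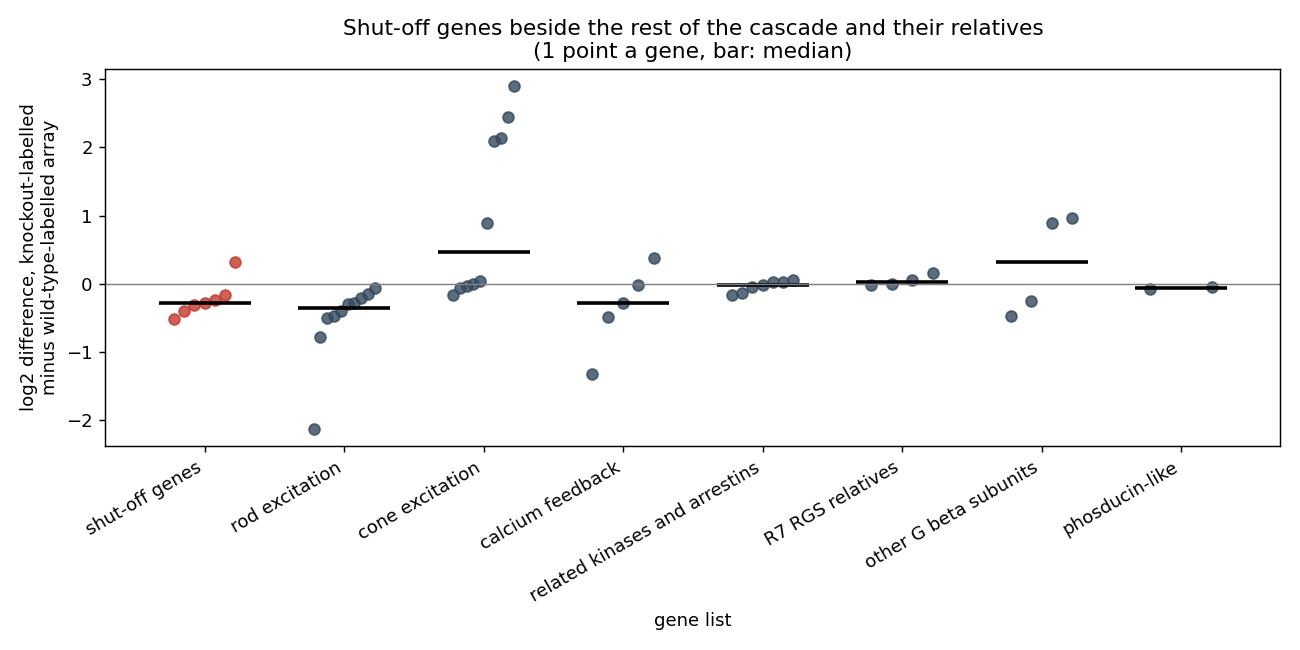
Log2 difference (vertical axis, knockout-labelled minus wild-type-labelled array) for each gene above background in 8 lists (horizontal axis), with 1 point a gene by its brightest probe and a bar at the median. The shut-off genes, in red, have a median of -0.28, near that of the rod excitation list at -0.35 and of calcium feedback at -0.28, and below that of cone excitation at 0.47.

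Markers of photoreceptors, pigment epithelium and lens differed between the arrays as well. All 8 rod markers were lower on the knockout-labelled array, between -2.13 (Gnat1) and -0.07 (Pde6b), with a median of -0.22. Their summed processed signal was 290161 on the knockout-labelled array and 417599 on the wild-type-labelled array. Gnat1 alone made up 17412 of the first sum and 79039 of the second, a large part of the gap between them. Of the 7 cone markers 4 were higher, between -0.17 (Opn1mw) and 2.91 (Cnga3), with a median of 0.04 and summed signals of 183531 on the knockout-labelled array and 58415 on the wild-type-labelled array. Gngt2 carried most of that sum, and the other 6 cone markers summed to 33010.2 on the knockout-labelled array and 29879 on the wild-type-labelled array. Such sums are not scaled between the arrays, weight the brightest probes and are no amounts of RNA. Pigment epithelium markers were lower in 3 of 4 cases, from Pmel (-0.81) to Best1 (0.15), with sums of 3172 on the knockout-labelled array and 5143 on the wild-type-labelled array. Lens markers were higher in 5 of 5, with sums of 8346 on the knockout-labelled array and 1707 on the wild-type-labelled array. Crybb2 lay at 2.80 and Lim2 was at least 1.58-fold higher. Lim2 and Mip were not well above background on the wild-type-labelled array, so that they have only bounds against that array's lowest signal well above background and no place in an order of the lens markers. The part of any of these in the values of the shut-off genes was not tested. In RNA of a whole retina, fewer cells of a type and less RNA per cell cannot be told apart.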

How the data were processed

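Scanner signals are linear intensity values, deposited by the authors as output of Agilent Feature Extraction 11.5.1.1 (protocol GE1_1105_Oct12, array design on build mm9), per the file headers. The deposited value table holds the same intensity values times a constant for each array and served as an alternative, with the origin of the constant unstated in the labels and headers.

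Each processed signal was taken as log2 minus log2 of the 75th percentile of that array's non-control spots (554 on the knockout-labelled array, 574 on the wild-type-labelled array). Outlier-flagged spots (163 and 119 on these arrays) were left out on both, and spots of 1 probe were averaged. Probes were named through their transcript accession in a RefSeq gene table of GRCm38.p6, which named 28330 of 55677 probes, and older symbols were updated there. The brightest probe stood for a gene. Where only 1 array was above background, the difference is a bound. The software's signal error was carried to the difference by first-order propagation. Promoter windows come from RefSeq, build GRCm38.p6.

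There was 1 array a group, hence no test. Every probe of the members is given. Of the wider cascade lists the 2 highest, the 2 lowest and all genes 2-fold apart are named, of each marker list the extremes, and of the lists of relatives every gene. A member of the rod excitation list is not reported here by itself. Members and lists were chosen with earlier results of these data known. Alternatives were other scalings, quantile, loess and normexp (limma 3.58.1, R 4.3.3), the authors' values, the mean over probes, and other filters on dim probes. The gene table and counting step were tested on simulated data.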

Additional observations from a re-analysis of the deposited data

How the results depend on the processing

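The differences of the 7 genes kept their sign under all 9 alternatives run for them, and none reached 2-fold. The authors' values and the filters on dim probes could not move these differences. Scaling cancels a constant for each array, and every member probe was above background. Arr3 ranged from 0.32 to 0.35, Gnb5 from -0.17 to -0.13 and Pdc from -0.24 to -0.21. With the mean over probes, Grk1 lay at -0.27, Rgs9 at -0.10, Rgs9bp at -0.38 and the median of the genes at -0.24. That setting averages in other probes by construction, and left 1 gene at least 20% lower and 1 at least 25% higher. With each spot centred on its neighbours on the array, chosen after seeing the data, Sag and the median lay at -0.22. The count at least 25% higher was 1 (Arr3) in place of 0 with median scaling, quantile, loess, normexp on median signals and local centring. The count of 0 thus held only under the main setting and the alternatives that could not move it. Leaving out each gene in turn gave medians from -0.30 to -0.26. Among the lists, normexp moved the median of cone excitation to 0.54 and of the other beta subunits to 0.39. Over all genes, 972 were at least 25% higher and 1210 at least 20% lower, against 551 and 532 under normexp and 1872 and 2286 with no filter. At 2-fold the counts were 251 and 218, against 125 and 46 under normexp, 160 and 94 with genes above background on both arrays, and 579 and 671 with no filter. The cause was not tested. Normexp was run on median spot signals. The number of arrays limits all precision, and the dim Rgs9bp probe lies close to background. No paired analysis was possible because only 1 array stands for each genotype label.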

Other observations

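Markers of the inner retina were less than 25% higher and less than 20% lower by their brightest probes in all 5 lists examined. These lists were for bipolar, horizontal, amacrine, ganglion and Müller glia cells. Over all 15947 genes, 6.1% were at least 25% higher and 7.59% at least 20% lower, so most genes also lay inside these limits. Bipolar markers ranged from 0.001 (Prkca, protein kinase C alpha) to 0.08 (Trpm1, the channel of ON bipolar cells, with another probe at -0.40). Their summed signals, not scaled between the arrays, were 56042 on the knockout-labelled array and 56832 on the wild-type-labelled array. After scaling, the log2 ratio of the sums was 0.03, on the same side as the differences. Amacrine markers ranged from -0.10 (Pax6) to 0.16 (the glycine transporter Slc6a9), and another probe of Tfap2a, also in that list, lay at 1.17. Ganglion cell markers ranged from -0.09 (the neurofilament gene Nefl) to 0.08 (Pou4f1). Horizontal cell markers, all dim, ranged from -0.18 (Lhx1) to 0.003 (Calb1). Müller glia markers ranged from -0.0001 (Rlbp1) to 0.14 (the water channel Aqp4). Microglia markers ranged from -0.23 (Csf1r) to -0.10 (Cx3cr1).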
